A study of Vaccinium virgatum with 9 samples.

Results

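In the berries of Vaccinium virgatum, the polyploid rabbiteye blueberry, 83 of 38665 genes met limits on abundance and on their ratios to water-treated plants. These members stood lower than in water after potassium sulfate at flowering and higher after potassium sulfate at the young fruit stage. Members were chosen from the measured values themselves: a mean of at least 3 CPM over all 9 libraries, a flowering-stage mean of at most 0.8 times the water mean (the lower limit), and a young-fruit-stage mean of at least the water mean divided by 0.8 (the upper limit). The abundance limit was met by 16909 genes, of which the members made up 0.491%. CPM is a gene's count relative to its library total, here with totals scaled by TMM factors (edgeR's correction for library composition). It is not corrected for gene length, so levels are not compared between genes. Because all 9 libraries entered the choice, the direction of every member is fixed by it, and the differences between groups are given below as descriptions. Calls of the fit over all genes are counted beside their share among all genes, not as tests of the members.

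RNA was sequenced from fruit of 7-year-old potted plants of a Menditoo × Tifblue cross. The water group received water alone. The flowering group received 10 g of potassium fertilizer per plant, as potassium sulfate in water, at the flowering stage, and the young fruit group received the same amount at the young fruit stage. Fruit of every group was picked 90 days after flowering, between 12 and 18 fruits went into each replicate, and each group held 3 libraries. The labels do not state whether replicates came from separate plants, so the spread between libraries may be partly technical. Potassium and sulfate were given together, and a later treatment also meant a shorter time to picking, so neither pair can be told apart.

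Potassium is the main inorganic cation of plant cells. It balances the charge of organic acids, drives turgor in growing fruit and supports the loading of sugar into the phloem. Sulfate is the form in which plants take up sulfur for cysteine, methionine and glutathione. The title of the study names anthocyanins, the red to blue pigments of the ripening berry skin, as its subject. The table pairs no identifier with a gene name, so no function is given for any member, fruit markers could not be matched, and the lists for anthocyanin synthesis, potassium transport, sulfate assimilation, seed storage and green tissue matched 0 genes.

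Library totals lay between 15655016 and 18424967 counts, with overlapping ranges in the 3 groups. TMM factors did not overlap, at 1.05 to 1.07 in water and 0.961 to 0.981 in the potassium libraries, so the ratios to water depend on the scaling more than the ratio between the timings does. Replicates of a group differed by more than sampling noise, with a chi-square per degree of freedom of 2.62 to 5.79, so none looked like a repeated deposit. The members held between 10 and 20869 counts in a library, with a median of 176 over the 747 values.

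Summed over the members, the level was 2174, 2313 and 2148 CPM in the 3 water libraries, 1528, 1526 and 1489 CPM in the flowering group, and 3578, 3838 and 3741 CPM in the young fruit group. The 3 groups did not overlap, and every library of a group lay close to its replicates. The means were 2211 ± 88.7, 1514 ± 21.7 and 3719.5 ± 131 CPM (SD, n = 3), which put the flowering group at 0.685 times water, the young fruit group at 1.68 times water, and young fruit at 2.46 times flowering. In bulk fruit, fewer cells of a type and less RNA per cell cannot be told apart.

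**Figure D1:**
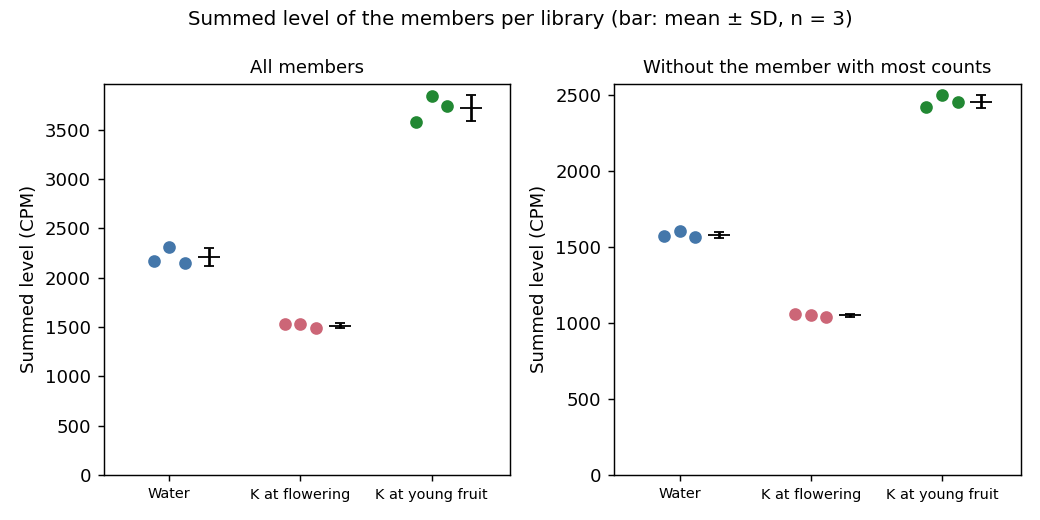
Summed CPM of the 83 members in each library (points) with the mean and SD of 3 libraries (bars), for all members and without the member that took the most counts. In both panels the flowering libraries are lowest and the young fruit libraries highest, with no overlap.

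A single member supplied 28.6% of that sum in water, 30.8% at flowering and 34.0% at young fruit. It had 603, 711 and 584 CPM in water, 472, 474 and 452 CPM after potassium at flowering, and 1163, 1339 and 1292 CPM after potassium at young fruit. Its young fruit mean was 2.00 times water and its flowering mean 0.737 times water, with no overlap between groups. Without it the sums were 1579 ± 20.2 CPM in water, 1048 ± 9.92 CPM at flowering and 2455 ± 42.1 CPM at young fruit (SD, n = 3), or 0.664 and 1.55 times water. The limits on each member fix the order of the groups in any such sum.

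Most members differed from water by modest amounts in each direction. The flowering mean lay between 0.159 and 0.794 times water, with a median of 0.688 and quartiles of 0.609 and 0.748. The young fruit mean lay between 1.252 and 3.20 times water, with a median of 1.48 and quartiles of 1.34 and 1.73. Over all genes with a mean of at least 3 CPM these medians were 1.04 and 1.04. Between the timings the members' young fruit mean was 1.66 to 9.66 times the flowering mean, with a median of 2.28 (0.994 over those genes). It exceeded the flowering mean at least 4 times in 6 members, 2 to 4 times in 56 and less than 2 times in 21.

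**Figure D2:**
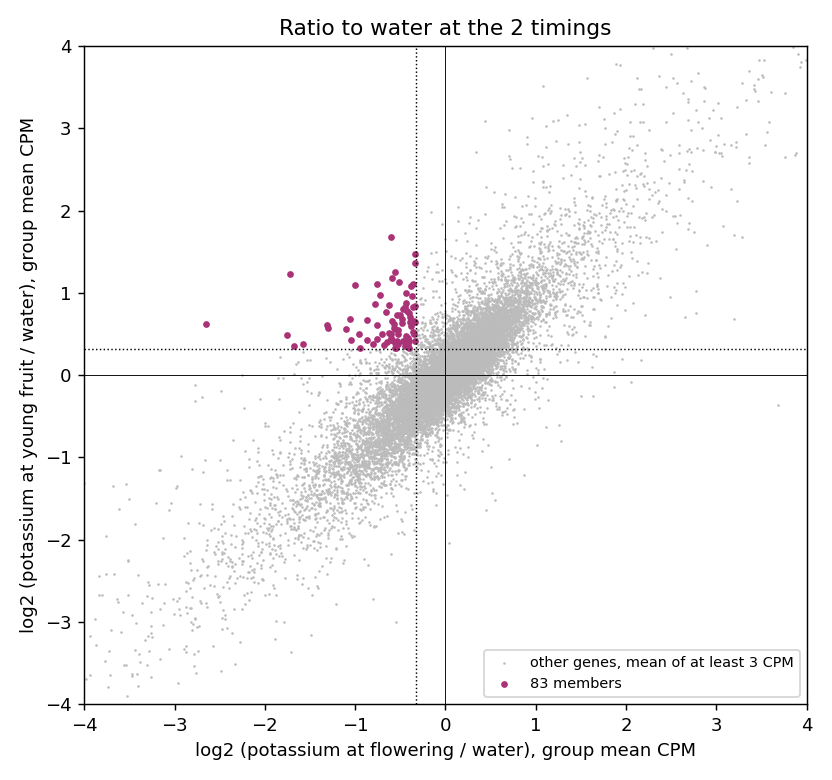
Each point is 1 of 16907 genes with a mean of at least 3 CPM and a value above 0 in every group mean, at its log2 ratio to water after potassium at flowering (x) and at young fruit (y); dotted lines mark the lower and the upper limit, and 157 genes lie outside the axes. The members fill the upper left corner off the main diagonal, most of them close to the limits.

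The corner they occupy was thinly filled. Of 4098 genes at or under the lower limit at flowering, 3275 (79.9%) were also at or under it at young fruit, 740 lay between the limits, and the 83 members made up 2.03%. Of 4854 genes at or over the upper limit at young fruit, 3594 (74.0%) were also at or over it at flowering and the members made up 1.71%. The reverse pattern, at or over the upper limit at flowering and at or under the lower limit at young fruit, was met by 44 genes. Without limits on size, 1213 genes (7.17%) had a flowering mean below and a young fruit mean above water, and 1379 (8.16%) the reverse. The comparisons with water share the 3 water libraries, so their ratios are not independent of each other.

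Water stood near the middle of the range on the log scale. Set between 0 at the flowering mean and 1 at the young fruit mean, its position had a median of 0.492 and ran from 0.185 to 0.828. The drop at flowering was the larger of the log ratios in 39 members and the gain at young fruit in 44. The lower and the upper limit are of equal size on the log scale and most members lie close to them. The choice itself therefore favours a position of water near the middle.

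Cut at 2-fold, an arbitrary point on ratios that run on across it, most members had small ratios and a few had 1 large ratio. In 63 members neither ratio reached 2-fold, and their median was 0.708 times water at flowering and 1.43 times at young fruit. The highest young fruit ratio among them was 1.9993, in the member with the most counts. In 9 members the flowering mean was at most 0.5 times water (median 0.403) while the young fruit mean stayed at 1.27 to 1.60 times water. In another 9 the young fruit mean was at least 2 times water (median 2.27) while the flowering mean stayed at 0.593 to 0.793 times water. Both limits were passed by 2 members, with means of only 3.13 and 3.77 CPM. In the member at 3.77 CPM the drop at flowering was not called by edgeR. Its water libraries overlapped those of both potassium groups.

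Vadar_g26072.v1.2 had the lowest flowering level relative to water. It measured 19.7, 20.2 and 22.8 CPM in water, 3.05, 4.16 and 2.75 CPM after potassium at flowering, and 31.0, 32.9 and 32.3 CPM after potassium at young fruit. The 3 groups were far apart, and the flowering libraries held a small part of the level seen in any other library. The log2 fold change was -2.67 ± 0.13 (SE) at flowering and 0.61 ± 0.10 at young fruit against water, and young fruit was 9.66 times flowering.

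Vadar_g28585.v1.2 followed at low counts, down to 13 in a library. It measured 4.82, 4.63 and 3.45 CPM in water, 1.04, 1.95 and 0.832 CPM at flowering, and 6.11, 5.73 and 6.19 CPM at young fruit. The groups did not overlap, and water replicate 3 was under its replicates. Its log2 fold change was -1.77 ± 0.27 (SE) at flowering and 0.47 ± 0.22 at young fruit, and the second was not called by edgeR. It was called by limma with voom weights (0.48), by edgeR on those 2 groups alone (0.47) and without flowering replicate 2 (0.47).

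Vadar_g24089.v1.2 had the highest young fruit level relative to water, 3.20 times. It measured 14.5, 14.1 and 16.0 CPM in water, 8.12, 9.48 and 11.7 CPM at flowering, and 47.8, 44.9 and 50.4 CPM at young fruit. All young fruit libraries stood far above the other 6, while flowering and water were closer together. The log2 fold changes against water were -0.62 ± 0.12 (SE) and 1.67 ± 0.10.

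Vadar_g31338.v1.2 had a similar shape with a flowering ratio just inside the limit, 0.793. It measured 14.3, 15.9 and 14.3 CPM in water, 11.2, 10.1 and 13.9 CPM at flowering, and 39.98, 41.2 and 42.0 CPM at young fruit. Flowering replicate 3 nearly reached the lowest water library. The log2 fold changes were -0.35 ± 0.11 (SE) and 1.46 ± 0.10, and the call at flowering was lost without water replicate 2 (log2 fold change -0.29) or without flowering replicate 1 or 2 (-0.31 and -0.24).

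Vadar_g24326.v1.2 was the member in which both ratios were largest together. It measured 2.89, 2.49 and 2.36 CPM in water, 0.794, 0.909 and 0.640 CPM at flowering, and 6.55, 5.92 and 5.63 CPM at young fruit. The groups were clearly apart in all 9 libraries. Its ratios to water were 0.302 and 2.34 (log2 fold changes of -1.73 ± 0.27 and 1.21 ± 0.21, SE), but its mean of 3.13 CPM was the lowest of any member and the smallest library held 10 counts.

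Vadar_g40448.v1.2 showed how thin the separation could be. It measured 4.88, 2.59 and 3.69 CPM in water, 1.95, 1.75 and 1.66 CPM at flowering, and 7.73, 5.28 and 4.89 CPM at young fruit. The lowest young fruit library and the highest water library were nearly equal. The log2 fold changes were -1.06 ± 0.27 (SE) and 0.68 ± 0.23, and the call at young fruit was lost without water replicate 2 (0.47) or young fruit replicate 1 (0.45).

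**Figure D3:**
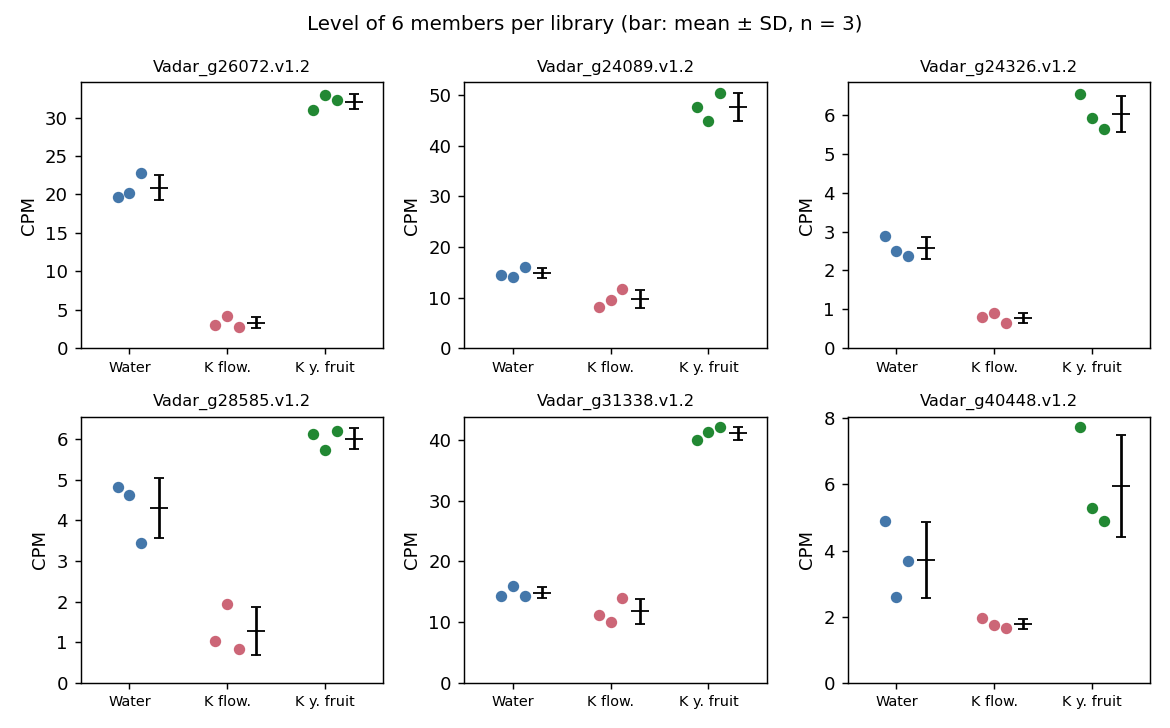
CPM of the 6 members named by a fixed rule, in each library (points) with the mean and SD of 3 libraries (bars); each panel has its own axis from 0. The left column shows the lowest flowering to water ratios and the middle column the highest young fruit to water ratios. The right column shows the largest smaller fold, the lesser of the drop at flowering and the gain at young fruit. All are taken among Vadar genes whose 3 groups do not overlap. Some members not shown had a larger smaller fold than the lower right panel, though with a smaller drop at flowering.

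Members that took many counts had the smaller spread between replicates, as given below. The member ranked 2 by counts had 177, 174 and 169 CPM in water, 88.6, 91.6 and 89.6 CPM at flowering, and 207, 226 and 219 CPM at young fruit. Its replicates were tight and its drop at flowering (0.519 times water) was larger than its gain at young fruit (1.253 times water, close to the limit). The member ranked 3 by counts had 79.5, 86.5 and 71.9 CPM in water, 61.8, 62.1 and 60.0 CPM at flowering, and 161, 175 and 127 CPM at young fruit. There the gain was the larger part, 1.95 times water against 0.773 at flowering, and young fruit replicate 3 was well under its replicates. The member ranked 6 by counts had 75.9, 78.1 and 74.9 CPM in water, 44.3, 41.2 and 46.2 CPM at flowering, and 101, 96.7 and 99.1 CPM at young fruit, 3 narrow and separate groups.

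Few counts went with wider scatter. The timings overlapped in a single member, with 3.48, 1.17 and 2.62 CPM at flowering against 5.18, 2.90 and 6.01 CPM at young fruit. Another member had 10.98, 6.63 and 2.35 CPM at young fruit and 3.98, 1.83 and 3.51 CPM in water, so that its young fruit mean, 2.14 times water, leaned on replicate 1. Members lay at lower counts than other genes: 42 of them (50.6%) had a mean of 3 to 10 CPM, against 31.1% of all genes with at least 3 CPM. Only 2 members exceeded 100 CPM, or 2.41% against 12.1%. The biological coefficient of variation, edgeR's measure of the spread between replicates beyond counting, had a median of 0.0930 in members and 0.0773 in all genes with at least 3 CPM, and 0.128 in members at 3 to 10 CPM, 0.0786 at 10 to 30 CPM and 0.0610 above. The part of depth and spread in the choice of members was not tested.

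**Figure D4:**
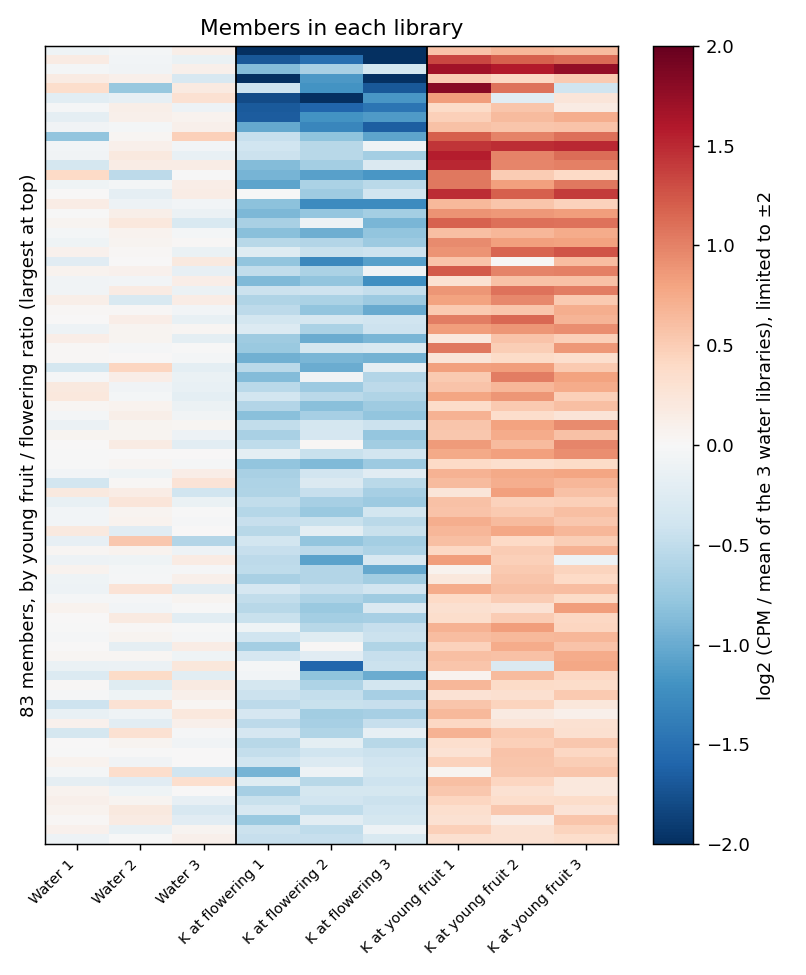
Log2 ratio of each library to the mean of the 3 water libraries for the 83 members (rows, ordered by the ratio of young fruit to flowering), with colours limited to ±2. Flowering libraries are blue and young fruit libraries red in nearly every row, with single pale or opposite cells in rows of few counts.

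Separation of the libraries was counted member by member. All 3 flowering libraries lay below all 3 water libraries in 64 members, against 27.6% of the 25728 genes tested, and all 3 young fruit libraries lay above water in 71, against 28.7%. Both held in 58 members, against 0.692% of genes, and young fruit lay wholly above flowering in 82, against 17.2%. The choice of members fixes these directions, so the shares are not evidence for the pattern. Water overlapped flowering alone in 13 members, young fruit alone in 6, and both in 6.

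In edgeR's quasi-likelihood test over all 25728 genes (adjusted p under 0.05), 69 members were lower than water at flowering and 69 higher at young fruit, while 24.4% and 25.6% of all genes tested were. Both calls were made for 62 members, against 0.470% of genes, 7 were called at flowering only, 7 at young fruit only and 7 in neither. All 83 were called higher at young fruit than at flowering, against 10.4% of genes. The contrasts are those used to choose the members, so these counts do not support the pattern. They are given by abundance only to show which members were called. The 7 called in neither had means of 3.17 to 5.33 CPM. All 17 members over 30 CPM were called in both comparisons, as were 23 of 24 at 10 to 30 CPM and 22 of 42 at 3 to 10 CPM. No share of all genes at the same abundance is set beside these counts, so they do not compare members with other genes. Calls in both directions covered 121 genes in all. The 62 members were 51.2% of these and 74.7% of the members, and of the other 59, 5 were under 3 CPM and 54 missed a fold limit.

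Each library was also read after the members had been chosen again from the other 8. The left-out library then took part in the choice only through the scaling factors. Among the 82, 83 and 90 genes chosen without flowering replicate 1, 2 or 3, the left-out library lay below the water mean in 95.1%, 95.2% and 93.3%, against 45.1 to 46.3% of all genes with at least 3 CPM. It was at or under 0.8 times water in 79.3%, 75.9% and 72.2%, against 25.4 to 25.7%. The median ratio to water in the left-out library was 0.708, 0.667 and 0.720, near the 0.679, 0.687 and 0.707 of the flowering libraries that made the choice.

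For young fruit, 86, 80 and 90 genes were chosen without replicate 1, 2 or 3. The left-out library lay above the water mean in 84, 76 and 81 of them, against 53.1 to 53.4% of all genes, and at or over the upper limit in 70.9%, 81.2% and 68.9%, against 28.6 to 29.3%. Its median ratio to water was 1.47, 1.48 and 1.42, slightly under the 1.49, 1.504 and 1.45 of the libraries used. Each of these 6 readings still shares the water mean with the choice. The genes were chosen on replicates of the same group and the genes in the share over all genes were not, so that share is not a like baseline. The readings describe how far replicates repeat each other and are not independent support for the pattern.

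A left-out water library has no such shared reference but is read against flowering and young fruit means that were chosen to be apart. It fell between them in 89.9%, 91.2% and 94.0% of the genes chosen without it, and met both fold limits on its own in 61.8%, 66.2% and 61.4%. Over all genes with at least 3 CPM the shares were 6.96%, 7.14% and 6.97% for falling between, and 0.481%, 0.493% and 0.481% for both fold limits. Most genes lack the gap between flowering and young fruit that the choice fixes, so these shares are not a like baseline.

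**Figure D5:**
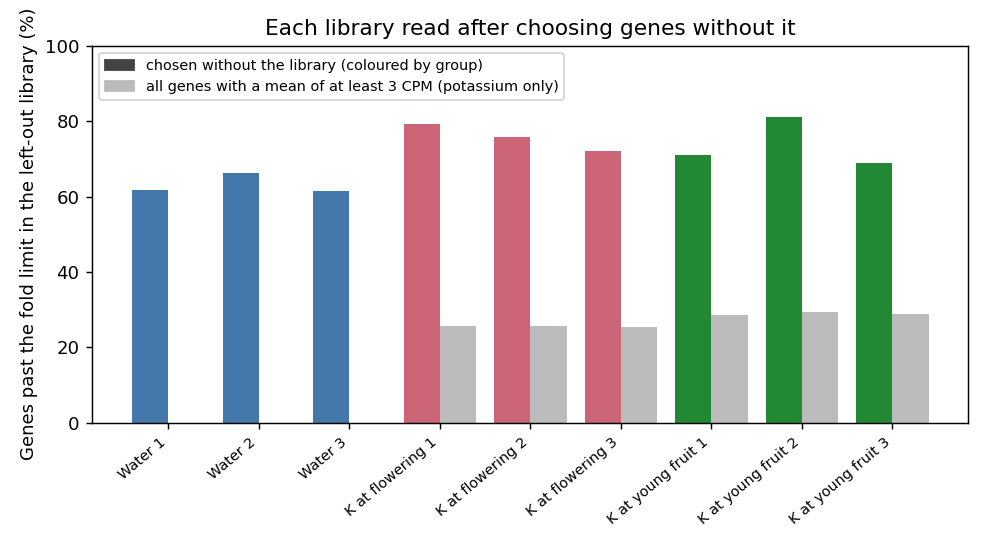
Percent of genes past the fold limit in a library that was left out of the choice (coloured bars, by group) and the same percent over all genes with a mean of at least 3 CPM (grey bars, potassium libraries only); for water libraries both limits had to be met at once. Coloured bars stand between 61.4% and 81.2%, and in the 6 potassium libraries they exceed the grey bar beside them.

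Membership changed more from library to library than the number of members did. Leaving out 1 library left 80 to 90 genes, of which 65 (without water replicate 2) to 76 were among the 83. In all 9 such choices 39 members were kept, 36 of which were called in both comparisons with water. The 44 lost at least once had a median flowering ratio of 0.746, close to the limit, against 0.656 in the 39. At the limits, the nearest member had a flowering ratio of 0.794 and the nearest gene outside 0.803, the young fruit ratios were 1.252 and 1.242, and the means 3.13 and 2.90 CPM.

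Scaling moved the members' ratios to water. With library size alone as the scale, 57 of the 83 remained and 84 genes met the rule. The median log2 ratio of all genes with at least 3 CPM moved from 0.06 to -0.07 at flowering and from 0.05 to -0.07 at young fruit. The members' medians then stood at 0.634 and 1.36 times water, and 26 members fell short of the upper limit at young fruit, and with upper quartile factors 13 missed the lower limit at flowering, leaving 70 of the 83. With library size alone, upper quartile and RLE factors no member crossed the water level, but the fold limits lie farther from it than these scalings move a gene.

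Identifiers took no part in the choice. Of the 83, 69 begin with Vadar and 14 share another prefix, 16.9% against 13.6% of all genes with at least 3 CPM. The 14 had medians of 0.597 and 1.54 times water and the 69 had medians of 0.696 and 1.48. Runs of close numbers occurred: 11 members lay within 10 identifier numbers of another, in 5 runs. Whether this is more than other sets of genes would show was not tested. In 1 run of adjacent numbers the young fruit ratios were 2.12 and 2.27 and the flowering ratios 0.769 and 0.665. In a run of 3 members spanning 9 numbers the young fruit ratios were 1.34 to 1.71 and the flowering ratios 0.548 to 0.761. The sources used here do not say whether numbers follow position in the genome, or whether reads of similar copies were divided between such neighbours. The other 570 genes with at least 3 CPM within 10 numbers of a member had medians of 1.02 and 1.05 times water. Of them, 7.37% lay below water at flowering and above it at young fruit, against 7.17% of all genes with at least 3 CPM. Members were left out of the 570 but are part of all genes, so that share is not a like baseline.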

How the data were processed

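The deposited table holds raw counts per gene, 1 column per library for 9 libraries. HISAT2 2.1.0 and StringTie 1.3.4d are named in the submitters' processing notes without roles. Which tool counted the reads, on which build and annotation and with which strand setting is not given in the sources used here, so reads of near-identical copies may be split or merged. Groups and replicate numbers were taken from the titles.

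For membership, CPM were computed with edgeR 4.0.16 (R 4.3.3) and TMM factors over all rows. For the fit, filterByExpr (minimum count 10, minimum total 15) kept 25728 genes, all 83 members among them. TMM factors were then recomputed, and edgeR's quasi-likelihood F test was run on all 9 libraries, with a term for each group, no covariate and Benjamini-Hochberg adjustment. Each standard error is the size of the log2 fold change over the square root of F. The fit was also run on simulated counts with known changes in a single group, which does not test the members' opposite directions. A gene at 3 CPM has 46.2 to 59.0 counts in a library of these sizes. Left-out libraries were read with the factors of all 9 libraries.

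Named members, among Vadar genes whose 3 groups do not overlap, are the 2 with the lowest flowering ratio, the 2 with the highest young fruit ratio and the 2 with the largest smaller fold. Other members are given by rank in counts or as examples of scatter, chosen after their values were seen. The members, lists and tests were chosen with earlier results of these data known. Alternatives covered scaling, filters, limits, DESeq2 1.42.0, limma 3.58.1 with voom weights, 2-group fits, the replicate block and each library left out. No sequence is printed, since none was used here.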

Additional observations from a re-analysis of the deposited data

Results flagged for a closer look

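The results below are listed because the change from water differed in direction between the timings, which is how the members were chosen. In edgeR's direct test between the potassium groups (adjusted p under 0.05), 83 of 83 members were higher after potassium at young fruit than after potassium at flowering. Of all genes tested, 10.4% were. In the comparisons with water, 62 of the 83 passed the threshold in opposite directions, against 0.470% of all genes tested in the same directions. The choice of members fixes both directions and a smallest size for each ratio, so these counts describe the members and are not independent support.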

How the results depend on the processing

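The limits themselves set the number of members. It was 171 with a minimum mean of 1 CPM, 41 with a minimum of 10 CPM, 15 with limits of 0.67 and 1.5, and 2 with limits of 0.5 and 2, instead of 83. Scaling by library size alone moved the mean summed level to 2344 CPM in water and 1474 CPM at flowering. The other 102 counts and levels recomputed stayed within 1.5 times or within 1 SD. With 1 library left out at a time there were 80 to 90 members, 58 to 72 calls at flowering, 63 to 70 at young fruit, 81 to 83 between timings and 50 to 63 in both comparisons with water. An adjusted p under 0.01 left 52, 60 and 81 calls, and 43 in both. Replicate numbers did not pair the libraries: deviations of same-numbered libraries correlated at -0.04 to 0.05, and 3 of 9 libraries correlated best with their own number. With the replicate block, 71, 69 and 83 members were called. Shares over all genes were not recomputed under these settings. In the main fit they were 24.4% at flowering, 25.6% at young fruit, 10.4% between timings and 0.470% in both comparisons with water. At this depth 22 of the 42 members at 3 to 10 CPM were called in both comparisons with water, with no share of all genes at that abundance beside it.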
